A study of Mus musculus with 192 samples.

Results

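The genes described here are the molecular chaperones and heat shock proteins, read out in the hippocampus of zQ175 and wild-type (WT) mice. They are the 81 protein-coding genes of the deposited count table whose symbol begins with Hspa, Hspb, Hspd, Hspe, Hsph, Hsp90, Dnaja, Dnajb or Dnajc, or with Cct followed by a digit, out of 21397 protein-coding genes and 41135 features. By family, assigned from the symbol alone, they were 28 Dnajc, 13 Dnajb and 4 Dnaja genes, 13 genes of the Hsp70 and Hsp110 group, 8 small heat shock proteins, 8 CCT genes, 3 Hsp90 genes, the 2 genes of the mitochondrial chaperonin, and the pair Hspbp1 and Hspbap1. That pair would drop out if a digit were required after every prefix; the subunit Cct6a, annotated as a processed transcript, and the subunit named Tcp1 do not meet the rule, and 1 further annotated gene model with a matching symbol was not analysed here. In each regimen 71 to 73 of the 81 genes had enough counts to be tested. The 8 genes below the filter in every regimen were Dnajb7, Dnajb8, Dnajc5b, Dnajc5g, Dnajc22, Hspb7, Hspb9 and Cct6b.

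Each of the 192 polyA-selected libraries came from the hippocampus of 1 mouse. The zQ175 line models Huntington's disease by a knock-in: the CAG repeat of the mouse's own Htt gene is lengthened, so the mutant protein is made wherever the Htt promoter is active. The labels give neither the number of Htt copies changed nor the repeat length. Both genotypes had an untreated group and 3 siRNA groups. The siRNA was a non-targeting control (NTC), HTT-10150 against full-length huntingtin mRNA, or HTT-634 plus HTT-486 (HTT-634.486) against the short huntingtin transcript HTT1a. The 3 regimens are written as age at treatment, months between in brackets, and age at collection: 2[4]6 stands for treatment at 2 and collection at 6 months, 6[4]10 for treatment at 6 and collection at 10, and 2.6[8]10 for treatments at 2 and at 6 with collection at 10. This gives 24 groups of 8 mice, with 4 females and 4 males in each. The untreated groups carry the regimen name but no siRNA. The design therefore asks how chaperone transcripts differ with the Htt knock-in, with a control siRNA, and with each huntingtin siRNA set against that control.

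Chaperones hold unfolded proteins in solution and help them fold. Hsp70 proteins bind and release short exposed stretches of a client in a cycle driven by ATP: J proteins (the Dnaj genes) deliver clients and start ATP hydrolysis, and nucleotide exchange factors such as the Hsp110 proteins reset the cycle. Hsp90 acts later on kinases and receptors, small heat shock proteins hold clients without ATP, and the ring-shaped chaperonin CCT folds actin and tubulin and binds polyglutamine stretches such as that of mutant huntingtin. When unfolded protein accumulates in the cytosol, heat shock factor 1 switches on Hspa1a, Hspa1b, Hsph1, Dnajb1 and their partners; a separate response raises Hspa5 and Hsp90b1 in the endoplasmic reticulum (ER).

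Library depth was 8.44 to 56 M counts in 2[4]6 (median 27.7), 13.4 to 41.3 M in 6[4]10 (24.5) and 13 to 65.7 M in 2.6[8]10 (16.5). Levels are given in CPM, each gene's share of its library's counts brought to a common library size, scaled with TMM factors, and a gene was called at an edgeR adjusted p under 0.05 over all genes tested. Neuronal and hippocampal field markers were detected in every group, so no defining marker of the labelled tissue was absent. Sex-linked genes put 3 libraries in doubt. Another library, WT HTT-10150 female 1 of 2.6[8]10, held 6028 CPM of striatal markers against 274 in the next highest. Counts of called chaperone genes at 2.6[8]10 are given with and without it. Values over all 192 libraries include it. Htt itself, the target, was lower with HTT-10150 than with NTC in zQ175 mice by a log2 change of -0.435 (SE 0.11, adjusted p = 0.0244), -0.69 (SE 0.13, adjusted p = 0.00542) and -0.92 (SE 0.11, adjusted p = 6.16e-08) in the 3 regimens, in the order given above. In bulk tissue, fewer cells of a type and less RNA per cell cannot be told apart.

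Promoter windows from RefSeq (build GRCm38.p6, 250 bases before to 50 after the start) were found for 66 of the 81 genes, and the 250 bases before the start were searched on both strands. The stretches below are shown because they carry the letters through which the heat shock and ER responses act, and because they show how alike the first pair is. Capitals mark the paired heat shock element GAANNTTC in the upstream stretch of the inducible Hsp70 genes, both on the minus strand.
Hspa1a, chr17:34972157-34972306: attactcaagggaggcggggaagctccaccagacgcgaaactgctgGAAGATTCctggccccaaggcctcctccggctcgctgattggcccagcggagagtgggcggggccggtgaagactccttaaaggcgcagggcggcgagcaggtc
Hspa1b, chr17:34959239-34959388: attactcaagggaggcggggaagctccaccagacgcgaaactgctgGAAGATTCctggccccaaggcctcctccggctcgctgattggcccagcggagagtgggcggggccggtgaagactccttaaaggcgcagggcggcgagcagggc

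These 150-base stretches were identical at all but 1 position. The transcripts of the 2 genes share 58.8% (Hspa1a) and 62.3% (Hspa1b) of their 50-base stretches, so the split of reads between them is uncertain and their sum is reported too. The next sites, each of 30 bases, are from genes whose values are described below; capitals mark GAANNTTC or its reverse arrangement TTCNNGAA, which overlap to make a triplet in Hspd1, Hspe1 and Dnajb6. Hspd1 and Hspe1 are read from the same site in opposite directions.
Hspd1, chr1:55088053-55088082, minus strand: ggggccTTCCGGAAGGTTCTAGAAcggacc
Hspe1, chr1:55088053-55088082, plus strand: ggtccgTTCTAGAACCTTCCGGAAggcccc
Dnajb6, chr5:29735843-29735872, plus strand: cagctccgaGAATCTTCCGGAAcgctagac
Hsph1, chr5:149636351-149636380, minus strand: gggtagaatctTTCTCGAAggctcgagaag
Dnaja4, chr9:54699469-54699498, plus strand: GAACGTTCtgggcctatgtggcgtcacgcc
Cct2, chr10:117063399-117063428, minus strand: ccccaagtgaaGAAGTTTCtagcaggacct
Hspb1, chr5:135887801-135887830, plus strand: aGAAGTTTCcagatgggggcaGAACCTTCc

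In the last set, capitals mark the ER stress element (CCAAT, then 9 bases of any kind, then CCACG) of genes for ER chaperones.
Hspa5, chr2:34772019-34772048, plus strand: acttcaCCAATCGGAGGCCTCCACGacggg
Hsp90b1, chr10:86705627-86705656, minus strand: CCAATCGCAAGGAGCCACGcttcgggcatc
Dnajc3, chr14:118937821-118937850, plus strand: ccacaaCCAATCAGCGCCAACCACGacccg

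GAANNTTC stood in 14 of 85 windows of these genes (16.5%) and in 6.69% of all 32851 windows, and TTCNNGAA in 9 of 85 (10.6%) against 7.17%. The triplet, GAANNTTC and TTCNNGAA sharing their TTC, overlaps both and stood in 4 of 85 (4.71%) against 0.466%. These windows repeat sites: those of Dnajb6 overlap on the same triplet, Hspd1 and Hspe1 share theirs, and Hspa1a and Hspa1b are near copies. By gene, GAANNTTC stood in 13 of 66, TTCNNGAA in 7 and the triplet in 3. The ER stress element stood in 3 of 85 windows (3.53%) against 0.113% of all windows. The Dnajb1 windows held none of these letters. Hspa8, Hsp90aa1 and Hsp90ab1 have no window in the table. A match is a description of letters and not a bound site.

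To set genes beside each other, CPM was divided by the joined length of all annotated exons of a gene. This is not the length of the transcripts expressed, so values and ranks per kilobase also depend on the annotation. Cct7, for example, had a higher mean CPM than Cct2 but a longer joined length, and ranked lower. Per kilobase of exon, 3 cytosolic chaperones led by a wide margin. Hsp90ab1, the constitutive Hsp90, had a mean of 624.8 CPM per kb over the 192 libraries. Hspa8, the constitutive Hsp70 Hsc70, was at 421.7, and Hsp90aa1, the inducible Hsp90, at 294.3. Next came Hsp90b1 (Grp94 of the ER) at 75.99 CPM per kb, Dnaja2 at 62.5, Hspd1 (the mitochondrial chaperonin) at 58.4, and the CCT subunits Cct8 and Cct2 at 51.5 and 51.3. Hspa5 (BiP, the ER Hsp70) stood at 49.9 CPM per kb, its mitochondrial counterpart Hspa9 at 49.6, Hspe1, the lid of the mitochondrial chaperonin, at 45.6, and Hsph1, an Hsp110, at 38.95. The stress-inducible genes were lower: Dnajb1 at 14.55 CPM per kb, Hspa1b at 7.65, Hspa1a at 7.59 and the small heat shock protein Hspb1 at 4.598, ranks 34, 46, 47 and 58 of 81. Dnajc5g was last, with 2 reads in all libraries together.

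zQ175 mice had less of both stress-inducible Hsp70 transcripts and of several J proteins than WT mice, and more of several CCT subunits and of constitutive Hspa8. Over the untreated and NTC mice of the 3 regimens together, 14 of the 73 tested genes rose and 12 fell in zQ175 mice (35.6%), beside 39.8% of all 16627 genes called in that comparison, so the share of chaperone genes called was not above the background. The median log2 change was -0.015, beside 0.002 for all genes. In single comparisons of untreated mice, 1 gene rose and 1 fell at 2[4]6 (background 4.15% of genes), 3 rose and 5 fell at 6[4]10 (11.5%), and 8 rose and 4 fell at 2.6[8]10 (11.1%). Among NTC mice, 1 rose and 3 fell at 2[4]6 (5.23%), 5 rose and 9 fell at 6[4]10 (14.7%), and 1 rose and 7 fell at 2.6[8]10 (10.4%). The untreated and NTC mice of a regimen are separate animals. Mice that share a library number, described below, are of 1 genotype, so fewer independent units than mice stand behind the genotype values. Each of these comparisons was refitted 4 times without 1 replicate number of each sex, which leaves 6 of 8 mice a group. The calls kept in all 4 refits were those of Hspa1b with NTC in each regimen, Cct3 in untreated mice of both 10-month regimens and with NTC at 6[4]10, Cct2 in untreated and Dnajc8 in NTC mice of 2.6[8]10, and Dnajc21 and Hspa1a with NTC at 6[4]10; every other call of a single genotype comparison was lost in at least 1.

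Hspa1b (ENSMUSG00000090877, chr17:34956436-34959238, minus strand) and Hspa1a (ENSMUSG00000091971, chr17:34969190-34972156, minus strand) encode the Hsp70 that stressed cells make. At 2[4]6 the lowest, median and highest Hspa1b levels of 8 WT mice were 17.9, 21.8 and 24.2 CPM untreated and 18.4, 25.7 and 29.3 with NTC. With siRNA against huntingtin the values were 14.05, 21.1 and 27.7 with HTT-10150 and 19.1, 21.6 and 26.6 with HTT-634.486. The zQ175 mice of that regimen had 11.2, 17.025 and 18.5 CPM untreated and 11.7, 16.8 and 19.8 with NTC. With the siRNAs against huntingtin they had 13.6, 18.6 and 22.3 with HTT-10150 and 14.2, 17.45 and 21.3 with HTT-634.486. Without an active siRNA, 7 of 8 untreated and 6 of 8 NTC zQ175 mice lay below every WT mouse of the same treatment, and the groups overlapped by the rest. At 6[4]10 the WT mice had 21.9, 26.04 and 49.8 CPM untreated and 24.9, 29.8 and 35.4 with NTC. The other treatments gave 22.8, 25.0 and 29.8 with HTT-10150 and 18.0, 26.6 and 43.0 with HTT-634.486. Their zQ175 counterparts had 11.98, 18.5 and 33.1 CPM untreated and 11.3, 16.9 and 28.2 with NTC. Under the other treatments they had 9.11, 13.9 and 14.8 with HTT-10150 and 13.8, 15.8 and 26.3 with HTT-634.486. The zQ175 groups were again lower, with 7 of 8 mice below every WT mouse in each of the untreated and NTC comparisons. At 2.6[8]10 the WT mice had 21.7, 23.8 and 50.6 CPM untreated and 22.5, 29.2 and 56.6 with NTC. In the remaining groups the values were 4.39, 20.9 and 46.5 with HTT-10150 and 18.0, 23.8 and 71.1 with HTT-634.486, where the lowest value with HTT-10150 is the library with striatal markers. The zQ175 mice had 10.005, 15.1 and 25.3 CPM untreated and 13.4, 15.4 and 23.3 with NTC. With siRNA against huntingtin the values were 12.2, 15.7 and 19.03 with HTT-10150 and 13.1, 17.05 and 21.2 with HTT-634.486, and again 7 of 8 lay below every WT mouse in the untreated and in the NTC comparison. The highest WT mice of this regimen are described with the library numbers below.

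Hspa1b fell in zQ175 mice in all 6 comparisons. In untreated mice the log2 change was -0.395 (SE 0.10, adjusted p = 0.0148) at 2[4]6, -0.53 (SE 0.16, adjusted p = 0.0191) at 6[4]10 and -0.76 (SE 0.24, adjusted p = 0.0280) at 2.6[8]10. In NTC mice it was -0.55 (SE 0.10, adjusted p = 0.000338), -0.795 (SE 0.16, adjusted p = 0.000202) and -1.02 (SE 0.24, adjusted p = 0.00211). Over all 6 it was -0.69 (SE 0.07, adjusted p = 2.51e-15), or -37.9% in percent. The log2 change by genotype at 10 months minus that at 6 months was -0.33 (SE 0.155, adjusted p = 0.303), which did not pass the threshold, and regimen and age cannot be told apart. In the refits with 6 of 8 mice, the untreated calls were lost in 3, 2 and 3 of 4 refits (highest adjusted p 0.134, 0.241 and 0.129 in the order of the regimens). The NTC and the pooled calls were kept in all 4.

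Hspa1a showed smaller differences in the same direction. Its lowest, median and highest levels in untreated mice were 18.8, 21.5 and 23.9 CPM in WT and 16.2, 18.1 and 21.5 in zQ175 mice at 2[4]6, 21.4, 24.5 and 35.6 against 15.7, 19.7 and 24.2 at 6[4]10, and 20.04, 25.9 and 44.1 against 16.3, 18.8 and 27.5 at 2.6[8]10. With NTC they were 18.3, 23.4 and 26.9 in WT and 14.3, 19.1 and 22.985 in zQ175 mice at 2[4]6, 22.6, 27.5 and 31.2 against 14.4, 19.5 and 26.4 at 6[4]10, and 21.6, 27.6 and 52.1 against 16.5, 19.4 and 25.3 at 2.6[8]10. The 6 zQ175 medians were between 18.1 and 19.7 CPM and each was below its WT median, but single mice overlapped in every comparison. Medians with HTT-10150 were 20.8, 26.3 and 22.6 CPM in WT and 19.5, 18.1 and 18.9 in zQ175 mice, and with HTT-634.486 22.4, 24.9 and 23.8 against 20.1, 18.8 and 20.3. Hspa1a fell in 4 of the 6 comparisons, by the log2 changes -0.35 (SE 0.10, adjusted p = 0.0145) in untreated mice at 6[4]10, -0.31 (SE 0.07, adjusted p = 0.00596) and -0.485 (SE 0.10, adjusted p = 3e-04) with NTC at 2[4]6 and 6[4]10, and -0.61 (SE 0.20, adjusted p = 0.0335) with NTC at 2.6[8]10. It was not called in untreated mice at 2[4]6, at -0.23 (SE 0.07, adjusted p = 0.0576), or at 2.6[8]10, at -0.41 (SE 0.20, adjusted p = 0.181). Over all 6 the change was -0.41 (SE 0.06, adjusted p = 3.7e-10), or -24.6% in percent. The 6[4]10 untreated call was lost in 2 of the 4 refits with 6 mice a group (highest adjusted p 0.159), the NTC call at 2[4]6 in 2 (highest 0.148) and the NTC call at 2.6[8]10 in 3 (highest 0.144).

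The sum of Hspa1a and Hspa1b does not depend on how shared reads were split. In untreated mice its lowest, median and highest levels were 40.7, 42.8 and 46.5 CPM in WT and 27.4, 35.1 and 39.996 in zQ175 mice at 2[4]6, 43.3, 50.3 and 85.4 against 27.7, 38.3 and 57.3 at 6[4]10, and 42.1, 50.4 and 94.7 against 26.3, 33.4 and 52.8 at 2.6[8]10. With NTC it was 36.8, 49.1 and 56.3 in WT and 25.9, 36.2 and 42.8 in zQ175 mice at 2[4]6, 47.5, 58.1 and 65.2 against 28.04, 35.3 and 54.5 at 6[4]10, and 46.5, 57.2 and 109 against 29.9, 34.6 and 48.5 at 2.6[8]10. At 2[4]6 every untreated zQ175 mouse lay below every untreated WT mouse in this sum, and in the other comparisons the groups overlapped.

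**Figure D1:**
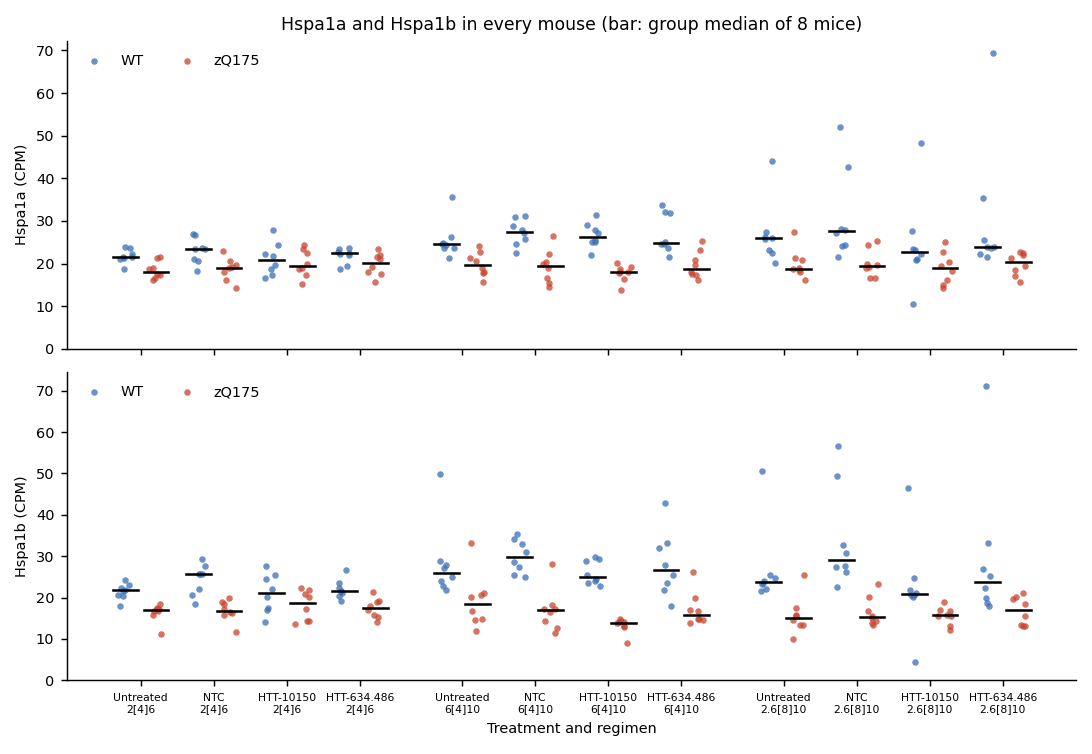
Hspa1a (top) and Hspa1b (bottom) in every mouse, in CPM on linear axes from 0, by treatment and regimen, with WT mice in blue and zQ175 mice in red and a bar at the median of 8 mice. The zQ175 bar is below the WT bar in each of the 12 pairs for both genes, and single WT mice of 6[4]10 and 2.6[8]10 stand high, up to 71.1 CPM of Hspa1b.

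Among the J proteins, 4 rose and 9 fell of the 40 tested genes over the 6 comparisons together, a share not above the 39.8% of all genes called, with the calls in 0 raised and 1 lowered of 4 Dnaja, 2 and 3 of 11 Dnajb, and 2 and 5 of 25 Dnajc genes. Dnaja4 (ENSMUSG00000032285, chr9:54698873-54716315, plus strand), a cytosolic partner of Hsp70 whose window carries the GAANNTTC shown above, fell in 5 of 6 comparisons. Its lowest, median and highest levels with NTC were 69.7, 71.4 and 81.02 CPM in WT and 60.4, 67.2 and 72.5 in zQ175 mice at 2[4]6, 69.4, 76.4 and 86.3 against 62.9, 67.2 and 71.2 at 6[4]10, and 67.1, 72.9 and 82.9 against 61.2, 63.9 and 68.2 at 2.6[8]10. In each of these 3 comparisons 7 of 8 zQ175 mice were below every WT mouse. The NTC changes were -0.13 (SE 0.04, adjusted p = 0.0365), -0.21 (SE 0.06, adjusted p = 0.00685) and -0.21 (SE 0.05, adjusted p = 0.00396), the untreated ones -0.10 (SE 0.04, adjusted p = 0.165), -0.16 (SE 0.06, adjusted p = 0.0455) and -0.17 (SE 0.05, adjusted p = 0.0217), and that over all 6 was -0.17 (SE 0.02, adjusted p = 3.71e-12). The untreated 6[4]10 call ended without the 3 libraries in doubt (adjusted p 0.051) and without the count filter (0.0583), which also ended the NTC call at 2[4]6 (0.102). With 6 mice a group the 5 calls were lost in 1 to 4 of the 4 refits each (highest 0.317, untreated 6[4]10), while the pooled call was kept in all 4.

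Dnajb6, a J protein known to keep polyglutamine proteins from aggregating, lies 4.94 Mb from Htt on chromosome 5. It fell with NTC at 6[4]10, by a log2 change of -0.115 (SE 0.03, adjusted p = 0.00849), and at 2.6[8]10 in untreated mice, by a log2 change of -0.11 (SE 0.035, adjusted p = 0.0232), and with NTC, by a log2 change of -0.12 (SE 0.035, adjusted p = 0.0183). It was not called at 2[4]6, at -0.09 and -0.08, and over all 6 the change was -0.10 (SE 0.01, adjusted p = 3.73e-11). In the untreated 2.6[8]10 mice the lowest and median Dnajb6 levels were 159.6 and 168.6 CPM in WT, and the zQ175 mice had 149.8, 154.3 and 163.1 (lowest, median, highest), with 7 of 8 zQ175 mice below every WT mouse. That call ended without the count filter (adjusted p 0.0733).

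Dnajc21, which acts in the making of ribosomes, fell in untreated mice at 6[4]10, by a log2 change of -0.21 (SE 0.06, adjusted p = 0.0104), and with NTC at 6[4]10 and 2.6[8]10, by a log2 change of -0.30 (SE 0.06, adjusted p = 0.000107) and -0.25 (SE 0.08, adjusted p = 0.0272). With NTC at 6[4]10 its levels were 26.5, 29.6 and 35.4 CPM in WT and 22.2, 24.8 and 28.3 in zQ175 mice, so that 7 of 8 zQ175 mice were below every WT mouse. Dnajc1, a J protein of the ER membrane, fell in 3 comparisons, by a log2 change of -0.23 (SE 0.065, adjusted p = 0.0108) with NTC at 6[4]10 and by a log2 change of -0.20 (SE 0.06, adjusted p = 0.0178) untreated and -0.20 (SE 0.06, adjusted p = 0.0218) with NTC at 2.6[8]10. The last call ended without the 3 libraries in doubt (adjusted p 0.0523). Dnajc8, associated with splicing, fell with NTC at 6[4]10, by a log2 change of -0.12 (SE 0.04, adjusted p = 0.0166), and at 2.6[8]10, by a log2 change of -0.17 (SE 0.04, adjusted p = 0.00359), where 7 of 8 zQ175 mice were below every WT mouse. Dnajc16 fell in both 6[4]10 comparisons, by a log2 change of -0.14 (SE 0.05, adjusted p = 0.0418) and -0.14 (SE 0.05, adjusted p = 0.0382), and both calls ended without the count filter (adjusted p 0.0532 and 0.0508). Over the 6 comparisons together the changes of these 4 genes were -0.19, -0.17, -0.10 and -0.11. Dnajb5 fell with NTC at 6[4]10, at mean levels of 177 CPM in WT and 148.2 in zQ175 mice, and the log2 change was -0.25 (SE 0.09, adjusted p = 0.0413), or 0.0546 without the count filter. Its naming, like that of Dnajc5, the synaptic vesicle cysteine string protein, was decided after its values were seen. Dnajc5 fell over all 6 comparisons, by a log2 change of -0.08 (SE 0.015, adjusted p = 3.87e-06), and was called in none of the single ones.

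Other J proteins rose. Dnajc12, a partner of the aromatic amino acid hydroxylases, was at 8.41, 9.745 and 10.3 CPM in untreated WT mice and 10.1, 11.04 and 12.3 in untreated zQ175 mice of 6[4]10, with 7 of 8 zQ175 mice above every WT mouse. Its log2 change there was 0.23 (SE 0.06, adjusted p = 0.00670), and in untreated mice of 2.6[8]10 0.22 (SE 0.06, adjusted p = 0.0148). With NTC it was not called, at 0.14 and 0.14. Dnajc17, associated with splicing, and Dnajb2, a J protein abundant in neurons, rose with NTC at 6[4]10, by 0.27 (SE 0.08, adjusted p = 0.00830) and 0.12 (SE 0.04, adjusted p = 0.0245). Dnajc13, which acts on endosomes, rose with NTC at 2.6[8]10, by 0.13 (SE 0.04, adjusted p = 0.0172). Its log2 change was above 0 in only 2 of the 6 comparisons, with a lowest value of -0.06. That call was lost without replicate 3 and without replicate 4 (highest adjusted p 0.175). Over all 6 comparisons Dnajc12, Dnajc17 and Dnajb2 rose, by 0.14, 0.13 and 0.05. The pooled Dnajb2 call was lost in 3 of 4 refits with 6 mice a group (highest adjusted p 0.143).

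Of the 7 tested CCT genes, subunits of the cytosolic chaperonin, 5 rose over the 6 comparisons together and 0 fell (71.4%, beside 39.8% of all genes called in either direction), with a median of 0.049. Cct3 (ENSMUSG00000001416, chr3:88297116-88321767, plus strand), the gamma subunit, was at 95.97, 99.305 and 106.63 CPM in untreated WT mice and 106.67, 111.26 and 116.6 in untreated zQ175 mice of 6[4]10, where all 8 zQ175 mice were above every WT mouse. With NTC in that regimen it was at 91.4, 101 and 108 against 105, 114 and 121.2 CPM. At 2.6[8]10 untreated WT mice had 88.99, 93.7 and 104 CPM and zQ175 mice 101, 108 and 114, and with NTC 94.3, 98.2 and 104 against 101.6, 105 and 110.3. In both treatments of both 10-month regimens 5 to 8 of 8 zQ175 mice were above every WT mouse. At 2[4]6 untreated WT mice had 90.988, 97.254 and 99.997 CPM and zQ175 mice 98.3, 102.2 and 106, and with NTC 93.9, 98.9 and 104 against 96.5, 106 and 116. The log2 changes of Cct3 in untreated mice were 0.09 (SE 0.03, adjusted p = 0.0838), 0.16 (SE 0.03, adjusted p = 0.000799) and 0.18 (SE 0.04, adjusted p = 0.000487), and with NTC 0.10 (SE 0.03, adjusted p = 0.0426), 0.18 (SE 0.03, adjusted p = 5.47e-05) and 0.10 (SE 0.04, adjusted p = 0.0828), so that it was called in 4 of 6. Over all 6 the change was 0.13 (SE 0.01, adjusted p = 7.82e-16), and the NTC call at 2[4]6 was lost in 3 of 4 refits with 6 mice a group (highest adjusted p 0.265).

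Cct2 and Cct4, the beta and delta subunits, rose in 3 comparisons each: Cct2 by 0.11 (SE 0.03, adjusted p = 0.0274) in untreated mice of 2[4]6, 0.105 (SE 0.04, adjusted p = 0.0454) with NTC at 6[4]10 and 0.11 (SE 0.03, adjusted p = 0.00253) in untreated mice of 2.6[8]10, and Cct4 by 0.13 (SE 0.04, adjusted p = 0.0109) and 0.11 (SE 0.04, adjusted p = 0.0234) at 6[4]10 and 0.14 (SE 0.04, adjusted p = 0.0147) in untreated mice of 2.6[8]10. Cct8 rose in untreated mice of 2.6[8]10, by 0.11 (SE 0.03, adjusted p = 0.0215). Without the count filter the Cct2 calls at 2[4]6 and 6[4]10 ended (adjusted p 0.0548 and 0.0923), as did the NTC call of Cct4 at 6[4]10 (0.0508). Over all 6 comparisons the changes were 0.09 (SE 0.01, adjusted p = 8.67e-10) for Cct2, 0.09 (SE 0.015, adjusted p = 6.45e-08) for Cct4, 0.05 (SE 0.01, adjusted p = 0.00237) for Cct8 and 0.04 (SE 0.01, adjusted p = 0.00654) for Cct7. Cct7 was named after its values were seen; Cct5 was at 0.03 (SE 0.01, adjusted p = 0.120) and Cct8l1 at -0.08 (SE 0.16, adjusted p = 0.746), neither called. Of 9 partners of the chaperonin fixed as a list (the Tcp1 subunit, prefoldin and phosducin-like genes), 3 rose and 0 fell (33.3%, beside 39.8% of all genes), with a median of 0.025. They were Pdcl, by 0.13 (SE 0.02, adjusted p = 4.7e-09), Vbp1, by 0.08 (SE 0.02, adjusted p = 0.000360), and Tcp1, by 0.04 (SE 0.01, adjusted p = 0.0117).

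**Figure D2:**
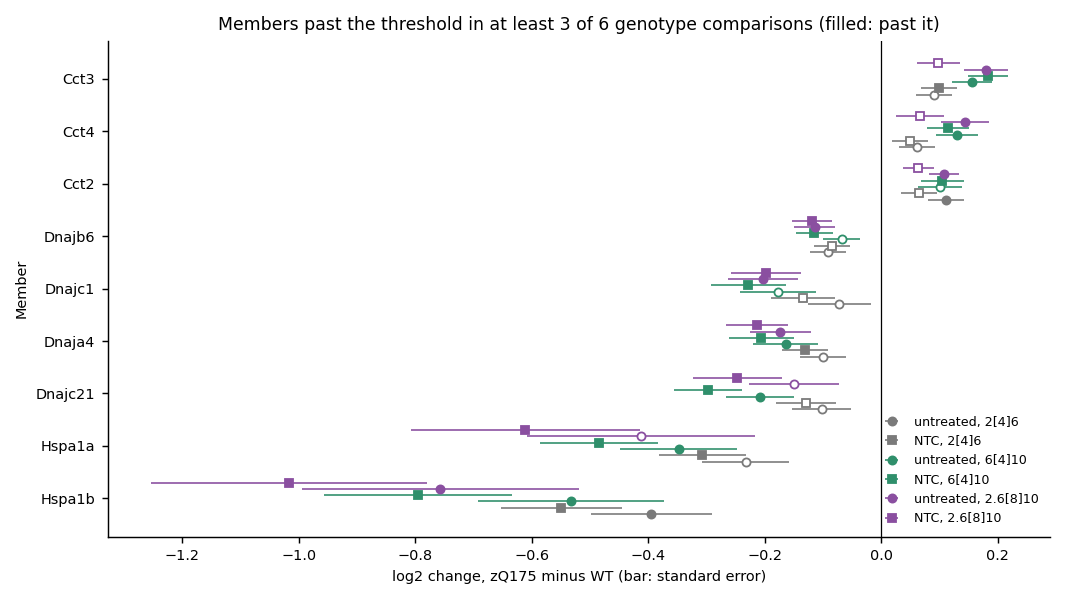
Log2 change in zQ175 against WT mice, with its standard error, for the 9 genes called in at least 3 of the 6 genotype comparisons; circles are untreated and squares NTC mice, colours are regimens, and filled symbols passed the threshold. Hspa1b lies from -0.395 to -1.02 and is filled in all 6, Cct3 lies from 0.09 to 0.18, and the J proteins lie to the left of 0 in all 6 comparisons.

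Group medians of the other main chaperones are given below in the order untreated, NTC, HTT-10150 and HTT-634.486. Hspa8 had WT medians of 1719.7, 1722, 1732 and 1722 CPM at 2[4]6, 1793.5, 1852, 1742 and 1779 at 6[4]10 and 1677, 1724, 1652 and 1687 at 2.6[8]10. Its zQ175 medians were 1824, 1855, 1770.4 and 1768 CPM at 2[4]6, 2022.3, 2050.1, 1949 and 1875 at 6[4]10 and 1877, 1867, 1755 and 1713 at 2.6[8]10. In untreated and NTC mice each zQ175 median of Hspa8 was above its WT median. Single mice overlapped, with for example 1560.1, 1677 and 1938 CPM in untreated WT and 1738, 1877 and 2051.9 in untreated zQ175 mice of 2.6[8]10. That comparison was the only one called, at 0.155 (SE 0.05, adjusted p = 0.0291). The others were 0.10, 0.085, 0.18, 0.17 and 0.11, and over all 6 Hspa8 rose by 0.13 (SE 0.02, adjusted p = 8.8e-08). That test takes mice as independent, although Hspa8 levels resembled each other between mice that share a library number, described below.

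Hsph1, the main Hsp110 and an exchange factor for Hspa8, had WT medians of 299.6, 287, 287 and 284 CPM at 2[4]6, 289.7, 283, 265 and 279 at 6[4]10 and 283, 279, 277 and 276 at 2.6[8]10. Hsph1 medians in zQ175 mice were 284, 276, 281 and 263 CPM at 2[4]6, 286, 289, 262 and 257 at 6[4]10 and 276, 271, 263 and 250.6 at 2.6[8]10. Over the 192 mice it ran from 224.5 to 383.5 CPM, the genotypes overlapped throughout, and the change over all 6 comparisons was -0.05 (SE 0.03, adjusted p = 0.158). Dnajb1, the J protein induced together with Hspa1a, had WT medians of 44.5, 43.5, 43.3 and 44.2 CPM at 2[4]6, 45.5, 47.0, 47.6 and 49.7 at 6[4]10 and 43.3, 46.3, 44.5 and 42.9 at 2.6[8]10. Dnajb1 medians in zQ175 mice were 43.9, 45.3, 42.1 and 43.9 CPM at 2[4]6, 46.8, 45.4, 45.3 and 45.5 at 6[4]10 and 48.3, 47.9, 45.8 and 45.5 at 2.6[8]10. Its change was 0.01 (SE 0.03, adjusted p = 0.808): of the genes that heat shock factor 1 induces, Hspa1a and Hspa1b fell and neither Hsph1 nor Dnajb1 was called in any genotype comparison. Hspa4, another Hsp110, and Hspa9, the mitochondrial Hsp70, were not called over all 6, at -0.015 (SE 0.02, adjusted p = 0.491) and 0.01 (SE 0.01, adjusted p = 0.475).

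Hsp90ab1 had WT medians of 1796, 1807, 1814 and 1811 CPM at 2[4]6, 1868, 1914, 1898.5 and 1849 at 6[4]10 and 1802, 1894, 1871 and 1846 at 2.6[8]10. Hsp90ab1 medians in zQ175 mice were 1794, 1861, 1875.5 and 1810.4 CPM at 2[4]6, 1987, 1999, 1961 and 1868 at 6[4]10 and 1919.7, 1920.1, 1896 and 1842.5 at 2.6[8]10. It was called in no single comparison and rose by 0.05 (SE 0.01, adjusted p = 0.00355) over all 6, a call that ended without replicate 3 (adjusted p 0.0567). Hsp90aa1 had WT medians of 1183, 1173, 1215 and 1178 CPM at 2[4]6, 1139, 1165, 1176 and 1190.0 at 6[4]10 and 1072, 1091, 1138 and 1121 at 2.6[8]10. Hsp90aa1 medians in zQ175 mice were 1138, 1150.5, 1165 and 1191.5 CPM at 2[4]6, 1175, 1222, 1185 and 1125 at 6[4]10 and 1143, 1080.5, 1116 and 1084 at 2.6[8]10. Its change was 0.02 (SE 0.02, adjusted p = 0.465), and its 192 mice ran from 913.8 to 1502 CPM with the genotypes overlapping.

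In the ER, Hspa5 had WT medians of 208, 220.5, 202 and 207 CPM at 2[4]6, 211, 198, 217 and 235.6 at 6[4]10 and 217, 204, 192.4 and 181.3 at 2.6[8]10. Hspa5 medians in zQ175 mice were 204, 193, 205 and 193 CPM at 2[4]6, 221, 223, 201 and 214.9 at 6[4]10 and 209, 186.03, 168.8 and 177 at 2.6[8]10. The genotype change over all 6 was -0.03 (SE 0.05, adjusted p = 0.703), while single mice ran from 159.1 to 384 CPM, a spread taken up with the library numbers below. Hsp90b1 had WT medians of 305, 312, 299 and 308 CPM at 2[4]6, 309, 296, 305 and 323 at 6[4]10 and 312, 314, 317 and 317 at 2.6[8]10. Hsp90b1 medians in zQ175 mice were 280.3, 277, 290.3 and 298 CPM at 2[4]6, 292, 311, 274 and 297.5 at 6[4]10 and 303, 291, 285 and 287 at 2.6[8]10. It was called in no single comparison and fell over all 6, by a log2 change of -0.10 (SE 0.03, adjusted p = 0.00435), a call that ended without replicate 4 (adjusted p 0.0651). Hspa13, a microsomal Hsp70, rose in untreated mice of 2.6[8]10, by 0.19 (SE 0.05, adjusted p = 0.0115), from 39.6, 43.4 and 49.0 CPM in WT to 48.3, 51.1 and 52.6 in zQ175 mice, and over all 6 by 0.07 (SE 0.02, adjusted p = 0.00280). Of 17 other ER chaperone and stress genes, 1 rose and 7 fell over the 6 comparisons (47.1%, beside 39.8% of all genes), with a median of -0.030. The smallest p-values were those of the stress regulators Atf6, at -0.25 (SE 0.025, adjusted p = 7.79e-17), Atf4, at -0.11 (SE 0.02, adjusted p = 5.6e-07), and Ddit3, at -0.13 (SE 0.03, adjusted p = 1.92e-05).

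In mitochondria, Hspd1 had WT medians of 156.3, 153.9, 157 and 157 CPM at 2[4]6, 149.3, 147.1, 149.4 and 151.4 at 6[4]10 and 150.65, 152.7, 151.1 and 150.9 at 2.6[8]10. Hspd1 medians in zQ175 mice were 157, 154.4, 160.7 and 152 CPM at 2[4]6, 155.7, 153.5, 153.4 and 150.6 at 6[4]10 and 162.1, 155.7, 154.5 and 148.3 at 2.6[8]10. It rose in untreated mice of 2.6[8]10, by 0.10 (SE 0.03, adjusted p = 0.00852), where 6 of 8 zQ175 mice were above every WT mouse, and over all 6 by 0.04 (SE 0.01, adjusted p = 0.0136), the pooled call ending without replicate 2 (adjusted p 0.0792). Hspe1 had WT medians of 63.55, 65.1, 65.0 and 68.8 CPM at 2[4]6, 61.7, 65.98, 67.8 and 68.4 at 6[4]10 and 69.6, 74.3, 75.8 and 70.5 at 2.6[8]10. Hspe1 medians in zQ175 mice were 61.9, 66.9, 62.0 and 66.6 CPM at 2[4]6, 64.4, 63.7, 63.7 and 68.03 at 6[4]10 and 69.4, 71.2, 69.9 and 70.4 at 2.6[8]10, and the gene was not called, at -0.01 (SE 0.02, adjusted p = 0.732). Of 8 mitochondrial chaperones and proteases on a fixed list, Clpb rose by 0.06 (SE 0.02, adjusted p = 0.00499) and Grpel1 fell by a log2 change of -0.06 (SE 0.015, adjusted p = 0.000377), with a median of -0.006. None of the 6 tested small heat shock proteins was called over all 6, at a median of 0.002. Hspb1, the most studied of them, had WT medians of 4.26, 5.12, 4.38 and 5.05 CPM at 2[4]6, 4.48, 5.02, 4.77 and 6.15 at 6[4]10 and 4.25, 4.165, 4.75 and 4.04 at 2.6[8]10. Hspb1 medians in zQ175 mice were 4.63, 4.11, 3.64 and 4.02 CPM at 2[4]6, 5.20, 4.82, 4.20 and 6.32 at 6[4]10 and 4.37, 3.46, 3.18 and 3.76 at 2.6[8]10, with a change of -0.10 (SE 0.09, adjusted p = 0.364).

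Of 4 genes, the heat shock factors Hsf1, Hsf2 and Hsf4 and the heat shock factor binding protein gene Hsbp1, 0 were called by genotype in edgeR. Their median change was -0.012, and the closest was Hsf4, at -0.08 (SE 0.04, adjusted p = 0.0707). Of 28 co-chaperones of Hsp70 and Hsp90, 5 rose and 7 fell (42.9%, near the 39.8% of all genes), with a median of -0.012. Among those that rose, Bag2, an exchange factor of Hsp70, rose by 0.26 (SE 0.03, adjusted p = 3.72e-12), and Ahsa2, related to the Hsp90 activator Ahsa1, rose by 0.17 (SE 0.03, adjusted p = 1.11e-07). The difference between the genotype effect at 10 months and at 6 months was called for 0 of the 73 chaperone genes in edgeR, beside 1.41% of all genes, with 16 at an unadjusted p under 0.05; 0 genes of the lists above were called in it.

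Other transcripts differed with genotype beside these changes. The background of the counts below is the 39.8% of all genes called in either direction over the 6 comparisons. Of 15 genes that respond to temperature, handling or time of day, 2 rose and 10 fell in zQ175 mice over the 6 comparisons, with a median of -0.258. The smallest p-values were those of Per1, at -0.26 (SE 0.04, adjusted p = 2.71e-10), Nr1d1, at -0.18 (SE 0.03, adjusted p = 1.1e-08), and Sgk1, at -0.30 (SE 0.05, adjusted p = 5.88e-07); the 2 that rose, named after their values were seen, were the cold-induced Rbm3, by 0.17 (SE 0.04, adjusted p = 0.000375), and Cirbp, by 0.14 (SE 0.04, adjusted p = 0.00176). The summed level of the 15 ran from 714 to 1444 CPM in WT and from 687 to 1164 in zQ175 mice, with group medians of 933 to 1088 and 768 to 909, and none was at 0 in all mice. All 6 neuronal markers fell, with a median of -0.138 and sums of 4556 to 5767 CPM in WT and 4029 to 4988 in zQ175 mice. Of 6 astrocyte markers 4 fell (median -0.117, sums 3190.2 to 4198.5 against 2929 to 3764 CPM), and of 6 microglial markers 4 rose (median 0.082, sums 275 to 389 against 310.4 to 421 CPM). Of 6 markers each, 2 oligodendrocyte markers rose and 3 fell, 4 markers of hippocampal fields fell, 2 endothelial, 1 mural and 1 striatal marker fell, and 0 of the choroid plexus or ependyma were called; none of these was at 0 in all mice. The part of these transcripts in the chaperone changes was not tested.

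Huntingtin siRNA changed few chaperone transcripts, and Hspa1a and Hspa1b were called in 0 of the 18 siRNA comparisons. Every huntingtin siRNA comparison within a regimen and genotype shares its NTC mice with the others and with NTC against untreated mice. Against NTC, HTT-10150 raised 3 of 73 genes in zQ175 mice at 2[4]6 (background 3.57% of genes), 0 at 6[4]10 (0.0672%) and 1 of 71 at 2.6[8]10 (0.871%), and lowered 0. In WT mice it changed 0 at 2[4]6 (0.0664%), 0 at 6[4]10 (0.0183%) and raised 1 at 2.6[8]10 (3.41%). HTT-634.486 changed 0 genes in zQ175 mice at 2[4]6 (0.0302%), lowered 1 at 6[4]10 (0.959%), and raised 1 and lowered 1 at 2.6[8]10 (2.04%). In WT mice it changed 0, 0 and 1 (0.0121%, 0.0244% and 0.751%). The gene raised by a huntingtin siRNA at 2.6[8]10 was Dnajc18 in every case, and its NTC level there was below the untreated level. NTC against untreated mice gave 0, 0 and 1 called genes in zQ175 (background 0.0302%, 0% and 1.02%) and 0, 0 and 1 in WT mice (0%, 0% and 0.694%). In the comparisons with 0 calls in edgeR, 1 to 8 of the 73 genes had an unadjusted p under 0.05, and DESeq2 called 2 genes in 1 of them, NTC against untreated zQ175 mice at 2[4]6. No chaperone gene passed the test of a difference between genotypes in its siRNA response.

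Dnajc18 (ENSMUSG00000024350, on chromosome 18 from 35671103 to 35708414) had the most calls of any chaperone gene, in 7 of these 18 comparisons. At 2.6[8]10 its lowest, median and highest levels in WT mice were 95.4, 99.5 and 104 CPM untreated and 74.97, 84.2 and 91.2 with NTC. With the siRNAs against huntingtin they had 90.4, 94.6 and 102.04 with HTT-10150 and 86.2, 98.7 and 105 with HTT-634.486. In zQ175 mice they were 97.3, 99.1 and 106 CPM untreated and 73.3, 82.6 and 98.95 with NTC. The other treatments gave 90.02, 91.9 and 104 with HTT-10150 and 93.3, 97.5 and 101 with HTT-634.486. The NTC mice were the low group: all 8 WT and 7 of 8 zQ175 mice with NTC were below every untreated mouse of their genotype. NTC against untreated gave a log2 change of -0.235 (SE 0.04, adjusted p = 0.000288) in WT and -0.26 (SE 0.04, adjusted p = 1.37e-05) in zQ175 mice. Against the same NTC mice, HTT-10150 gave 0.18 (SE 0.04, adjusted p = 0.00376) and 0.19 (SE 0.04, adjusted p = 0.00307), and HTT-634.486 gave 0.22 (SE 0.04, adjusted p = 0.000539) and 0.22 (SE 0.04, adjusted p = 0.000214), in WT and zQ175 mice. In the other regimens the NTC groups were also the lower ones, at mean levels of 94.6 CPM with NTC and 105 untreated in WT mice of 2[4]6, but NTC against untreated was not called: -0.15 (SE 0.04, adjusted p = 0.833) and -0.18 (SE 0.04, adjusted p = 0.0770) at 2[4]6 and -0.145 (SE 0.05, adjusted p = 0.559) and -0.11 (SE 0.05, adjusted p = 1) at 6[4]10, in WT and zQ175 mice. With 6 mice a group, the WT calls at 2.6[8]10 each ended without replicate 3 (adjusted p 0.0564 for NTC, 0.0718 for HTT-10150 and 0.0809 for HTT-634.486), and the zQ175 call with HTT-10150 was lost in 3 of 4 refits (highest adjusted p 0.123); the zQ175 calls for NTC and for HTT-634.486 were kept in all 4.

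**Figure D3:**
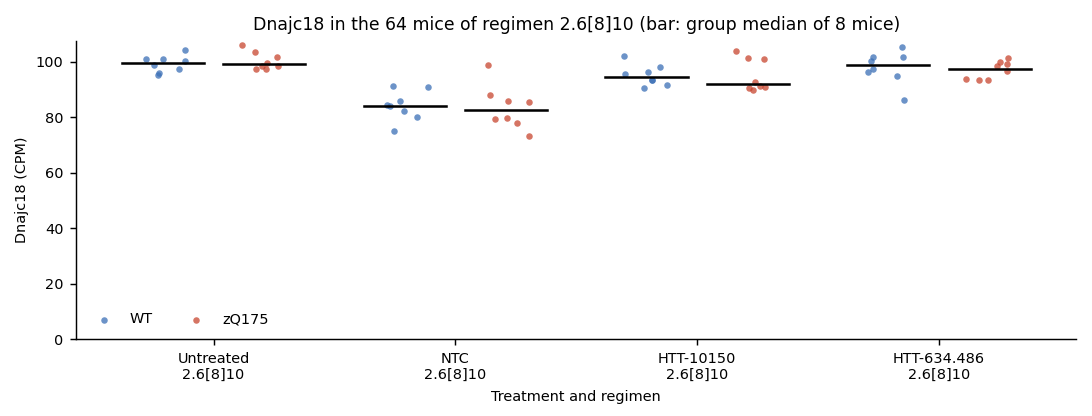
Dnajc18 in the 64 mice of regimen 2.6[8]10, in CPM on a linear axis from 0, by treatment, with WT mice in blue, zQ175 mice in red and a bar at the median of 8 mice. The NTC medians, 84.2 CPM in WT and 82.6 in zQ175 mice, are the lowest of the 4 treatments in both genotypes.

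In zQ175 mice of 2[4]6, HTT-10150 raised Dnajc18 by 0.25 (SE 0.04, adjusted p = 0.000349), Hspa12b by 0.41 (SE 0.09, adjusted p = 0.00761) and Dnajc6 by 0.15 (SE 0.04, adjusted p = 0.0377) against NTC. The Dnajc18 level of these NTC mice was itself below that of untreated zQ175 mice, a difference that was not called. Hspa12b, a distant Hsp70 relative enriched in endothelial cells, was at 3.91, 5.30 and 5.47 CPM with NTC and 5.57, 6.55 and 8.27 with HTT-10150, so that all 8 treated mice were above every NTC mouse. Untreated zQ175 mice had 4.46, 6.25 and 7.23. Dnajc6, auxilin, which uncoats clathrin vesicles with Hspa8, was at 271, 281 and 312 CPM with NTC and 287, 315 and 338 with HTT-10150. In WT mice of that regimen the Hspa12b change was 0.21 (SE 0.09, adjusted p = 0.780), and the difference between the genotypes was 0.195 (SE 0.13, adjusted p = 0.525). Beside the Hspa12b change, 6 of 6 endothelial markers rose in the same comparison (background 3.57% of all genes), with a median log2 change of 0.407. Their summed level was 98.7, 129.2 and 145.62 CPM (lowest, median, highest) with NTC, 147.35, 182 and 188 with HTT-10150 and 136.4, 152 and 168.15 untreated, and none was at 0. Of 6 mural cell markers 2 rose, and the part of vascular cells in the Hspa12b value was not tested. Without replicate 4 the Dnajc18 and Hspa12b calls ended (adjusted p 0.0625 and 0.186), and the Dnajc6 call was lost in 3 of 4 refits (highest 0.290) and without the count filter (0.077).

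Hspa13 fell with HTT-634.486 in zQ175 mice of both 10-month regimens. At 6[4]10 it was at 44.1, 48.9 and 53.0 CPM with NTC and 36.96, 40.7 and 46.9 with HTT-634.486, and at 2.6[8]10 at 42.9, 47.6 and 52.4 and 32.9, 41.1 and 44.8. Of the treated mice, 7 of 8 and 6 of 8 were below every NTC mouse. The changes were -0.25 (SE 0.055, adjusted p = 0.0131) and -0.23 (SE 0.05, adjusted p = 0.00847). At 2[4]6 it was -0.13 (SE 0.05, adjusted p = 0.581). In WT mice the changes were -0.05, -0.065 and -0.13, none called, and the difference between genotypes did not pass its own test (adjusted p = 0.765 at 6[4]10 and 0.998 at 2.6[8]10). With 6 mice a group the zQ175 calls were lost in 2 and 3 of 4 refits (highest adjusted p 0.309 and 0.124). For Hspa1b, the largest siRNA change was that of HTT-10150 in WT mice of 2.6[8]10, -0.61 (SE 0.235, adjusted p = 0.143), a group that holds the library with striatal markers. Without that library, chaperone calls at 2.6[8]10 were 8 raised and 6 lowered among untreated mice by genotype, 3 and 8 with NTC, 2 for NTC against untreated WT mice, 3 raised and 1 lowered for HTT-634.486 in zQ175 mice, and 1 in each other siRNA comparison; the Dnajc18 calls were kept.

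Females had more of several folding chaperones than males. Over the 24 groups, 8 of 73 genes were higher and 2 lower in females (13.7%), beside 15.7% of all genes. The share of chaperone genes called by sex was thus not above the background. Higher in females were Hsph1, by 0.11 (SE 0.02, adjusted p = 1.69e-05), Hsp90b1, by 0.10 (SE 0.02, adjusted p = 0.000146), Hspa4, by 0.06 (SE 0.01, adjusted p = 4.39e-05), Hspd1, by 0.04 (SE 0.01, adjusted p = 0.00217), and Dnajb2, by 0.05 (SE 0.01, adjusted p = 0.00523). Hspe1, Hspa4l and Hsp90aa1 were higher by 0.05, 0.06 and 0.04. Lower were Hspa2, an Hsp70 best known from the testis, by a log2 change of -0.095 (SE 0.02, adjusted p = 5.38e-05), and Dnajc7, by a log2 change of -0.03 (SE 0.01, adjusted p = 0.0266). Of the 17 other ER genes 12 were higher and 0 lower in females, with a median of 0.049, and of the 28 co-chaperones 9 were higher and 1 lower, with a median of 0.015. Pdia6, Calr and Xbp1 led the first list, at 0.13, 0.10 and 0.11, and Chordc1, Stip1 and Ahsa1 the other, at 0.10, 0.07 and 0.05. The cold-induced genes differed the other way: Rbm3 was at -0.34 (SE 0.03, adjusted p = 3.83e-19) and Cirbp at -0.15 (SE 0.03, adjusted p = 1.08e-05), and among the heat shock factors Hsf2 was at -0.06 (SE 0.015, adjusted p = 0.00221). Trap1, a mitochondrial Hsp90, and Clpb were higher in females, at 0.05 and 0.06, 2 of the 8 mitochondrial genes, of which 2 others were lower. With 6 mice a group the call of Hspa2 was kept in all 4 refits and each of the other 9 was lost in 1 to 3. With the library number described next as a block, the calls of Hsp90aa1 and Dnajc7 ended (adjusted p 0.0819 and 0.0526 in limma), and that of Hsp90aa1 also ended without the count filter (0.067). Sex is nearly nested in the library number described next, so that fewer independent units stand behind these values than 192 mice.

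Library names in the labels begin with a number whose meaning the labels do not give. There were 62 such numbers, 19, 21 and 22 in the 3 regimens, held by 1 to 6 mice each (median 3). Every number had mice of 1 genotype and 1 regimen, and 61 of 62 had mice of 1 sex, while the treatments were spread over numbers. Chaperone transcripts resembled each other between mice that share a number more than most transcripts did, as measured by the intraclass correlation of log2 CPM after group and sex means were removed. Its median over all genes was 0.05, 0.09 and 0.12 in 2[4]6, 6[4]10 and 2.6[8]10, and over the chaperone genes 0.11, 0.23 and 0.19. In the highest 5% of all genes were 7 of 73 (9.59%), 21 of 73 (28.8%) and 15 of 71 (21.1%) chaperone genes. All genes tested were not matched to the chaperone genes for expression level. At 2.6[8]10, Dnajb1 ranked 1 of 15852 genes, at 0.85, followed by Hspa8 at 0.79 (rank 4), Hspa1a at 0.71 (18), Hspa5 at 0.68 (29), Hsph1 at 0.67 (33) and Hspa1b at 0.61 (70). At 6[4]10, Hspa5 ranked 2 of 16374, at 0.78, followed by Hsp90b1 at 0.64, Hspb1 at 0.63 and Hsph1 at 0.62, with Hspa1b at 0.43 and Hspa1a at 0.34. At 2[4]6 the values were lower: Dnajc19, of mitochondrial import, led at 0.51, Hspa5 was at 0.41, Hsph1 at 0.36 and Hspa8 at 0.33, and Hspa1b, Dnajb1 and Hspa1a were at 0.12, 0.03 and 0.01. Of the temperature and handling list, 4 genes were looked at, in the order 2.6[8]10, 6[4]10 and 2[4]6: Cirbp gave 0.72, 0.63 and 0.23, Per1 0.67, 0.62 and 0.40, Rbm3 0.49, 0.61 and 0.39, and Fos 0.71, 0.20 and 0.01. In the same order, the ER genes Calr and Pdia6, which the symbol rule leaves out, gave 0.71, 0.60 and 0.34, and 0.56, 0.66 and 0.36.

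**Figure D4:**
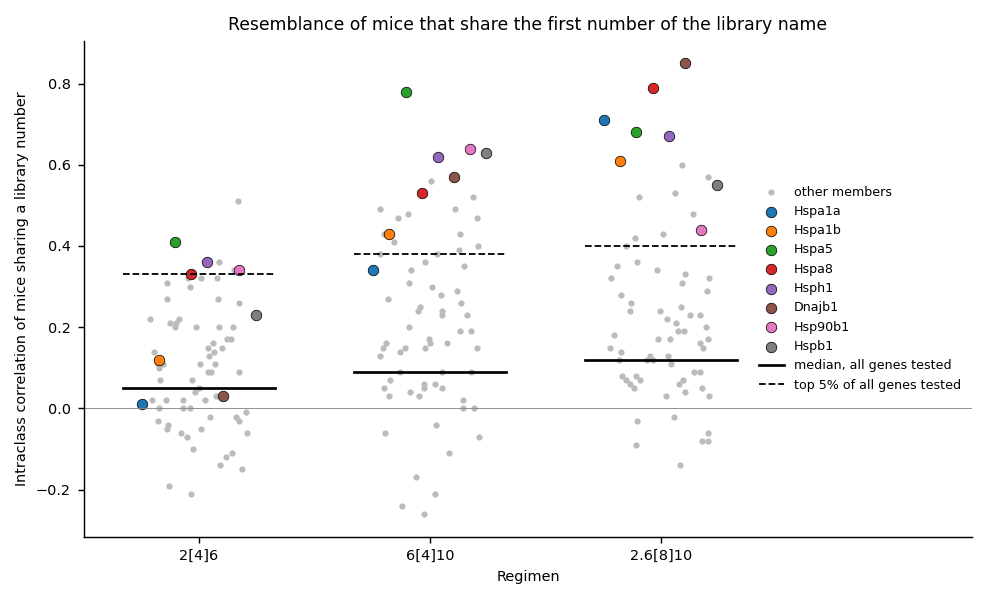
Intraclass correlation of mice that share a library number, for each tested chaperone gene (points) in each regimen; solid lines mark the median and dashed lines the start of the highest 5% of all genes tested. Dnajb1 reaches 0.85 at 2.6[8]10 and Hspa5 0.78 at 6[4]10, while at 2[4]6 Dnajb1 and Hspa1a lie at 0.03 and 0.01.

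Dnajb1 at 2.6[8]10 shows the pattern in single mice. The 3 WT mice of number 89 had 71.5, 72.1 and 76.9 CPM and the WT mouse of number 86 had 67.0, from treatments that differ. The 4 WT mice of number 85 ran from 47.1 to 59.8 CPM, the 4 zQ175 mice of number 87 from 54.7 to 57.8, the 3 zQ175 mice of number 88 from 51.4 to 58.2, and the zQ175 mouse of number 91 had 59.8. Mice of the other 16 numbers ran from 39.045 to 56.2 CPM, so that mice of the 6 numbers from 85 on were mostly above the rest in both genotypes. Hspa1b was high in the same WT mice, at 50.6, 56.6 and 71.1 CPM for number 89. It was at 46.5 for number 86 and up to 49.3 for number 85. The zQ175 mice of numbers 87 and 88 ran from 16.9 to 23.3 CPM of Hspa1b, and that of number 91 had 25.345. These were lower than the high WT mice but mostly high for their genotype. The other zQ175 numbers of 2.6[8]10 had Hspa1b medians of 10.005 to 16.139 CPM, with single mice up to 20.038. The mice of numbers 89 and 86 are male 4 of the 4 WT groups of 2.6[8]10. Hspa5 at 6[4]10 was at 384 CPM in a WT mouse alone in its number, at 338 to 348 in 3 WT mice that share one number and at 319.5 to 319.7 in 2 that share another. It was at 231.38 to 363 in 6 zQ175 mice of one further number. Mice of the remaining 17 numbers ran from 167.5 to 286 CPM.

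**Figure D5:**
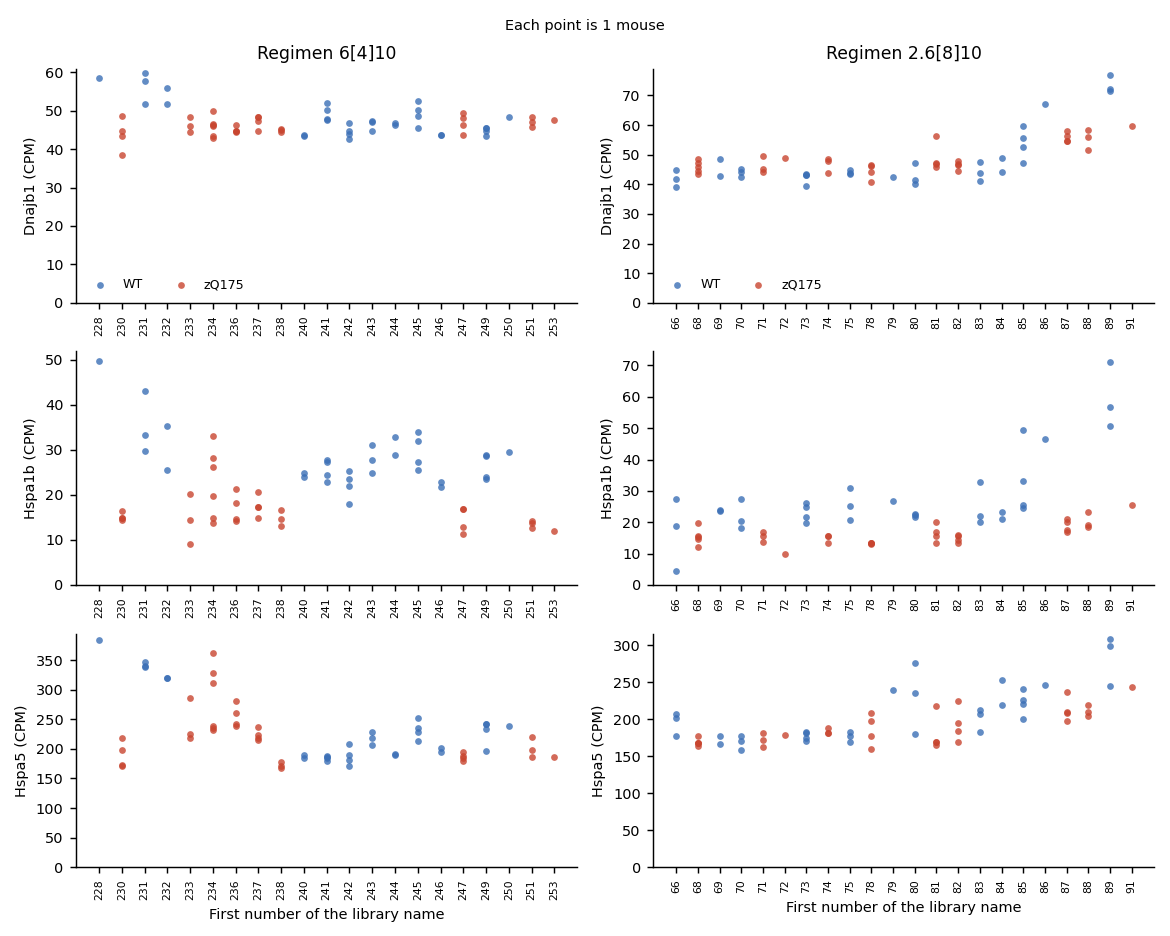
Dnajb1, Hspa1b and Hspa5 by the first number of the library name in the 2 regimens collected at 10 months, in CPM on linear axes from 0, with 1 point per mouse, WT in blue and zQ175 in red. The 3 mice of number 89 stand at 71.5 to 76.9 CPM of Dnajb1, while 6 zQ175 mice of one number of 6[4]10 spread from 231.38 to 363 CPM of Hspa5.

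Because a number holds 1 genotype, the genotype comparison was repeated with the number as the unit, as the mean log2 CPM of its untreated and NTC mice, over 29 zQ175 and 28 WT numbers with 100000 permutations within regimen. Hspa1b differed by a log2 change of -0.727, Hspa1a by a log2 change of -0.419, Dnaja4 by a log2 change of -0.178 and Cct3 by 0.133, each at a two-sided p of 1e-05, the smallest these permutations can give, in 4 tests. These 4 genes were those called one way in at least 4 of the 6 genotype comparisons, which used the same mice. The p-values therefore ask only whether a known difference holds with the number as the unit, and are not independent support. Of 29 zQ175 numbers, 28 lay under the WT median for Hspa1b and Hspa1a, 29 for Dnaja4 and 1 for Cct3. The mean of a number with few mice is less certain than that of a number with many, and this comparison weights them equally. No other genotype call was tested with the number as the unit. Among those is Hspa8, whose intraclass correlation was 0.53 at 6[4]10 and 0.79 at 2.6[8]10.

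Several pairs of chaperones varied together across mice of the same group and sex, and the mitochondrial pair did so least. For 10 pairs fixed as a list, residuals of log2 CPM from the mean of each group and sex were correlated over the 192 mice, with p-values from permutations within group; the smallest possible, 1e-05 (1.4e-05 adjusted over the 10 pairs), applies to each pair unless another is given. Since mice that share a number are not independent, means of the 62 numbers and residuals within numbers are given beside each value. Hspa5 and Hsp90b1 gave Pearson r = 0.83 and Spearman rho = 0.83, with r = 0.86 over numbers, 0.78 within them and 0.83 without the 2 mice farthest from the Hspa5 median. Hspa1a and Hspa1b gave r = 0.86 and rho = 0.80 (numbers 0.90, within 0.79, without the 2 farthest 0.83), a pair whose reads can be exchanged. Hspa8 and Hsph1 gave r = 0.75 and rho = 0.73 (numbers 0.87, within 0.52, without the 2 farthest 0.74). Hspa8 and Hsp90aa1 gave r = 0.54 and rho = 0.49 (0.48, 0.60 and 0.51 in the same order). Hsph1 and Dnajb1 gave r = 0.54 and rho = 0.45 (0.68, 0.18 and 0.51), Cct2 and Cct5 r = 0.43 and rho = 0.40 (0.48, 0.43 and 0.40). For Hsph1 and Dnajb1 the relation was larger between numbers than within them.

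The partners of the mitochondrial chaperonin, Hspd1 and Hspe1, barely followed each other, at r = 0.12 (permutation p = 0.16, adjusted 0.18) and rho = 0.18 (p = 0.021, adjusted 0.024), with 0.41 over numbers and -0.13 within them. Hsph1 ran opposite to the cold-induced Cirbp, at r = -0.78 and rho = -0.75, with -0.84 over numbers, -0.63 within them and -0.76 without the 2 farthest mice. Hspa1b and Fos, an immediate early gene, gave r = 0.23 (permutation p = 0.0016, adjusted 0.0019) and rho = 0.25 (p = 0.00099, adjusted 0.0012), with 0.52 over numbers and -0.03 within them. Hspb1 and the endothelial marker Cldn5 gave r = 0.06 (permutation p = 0.46) and rho = 0.04. Within regimens the correlations of Hspa8 with Hsph1, of Hspa5 with Hsp90b1 and of Hsph1 with Cirbp at 10 months stayed between 0.75 and 0.89 in size: 0.78 and 0.78, 0.89 and 0.79, and -0.86 and -0.75 at 6[4]10 and 2.6[8]10.

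The genes most like a given chaperone were sought among 11626 genes of at least 5 CPM over the 192 libraries, as a description by Pearson r of log2 CPM residuals after group and sex terms were removed. For Hspa5 they were the ER genes Pdia6 (0.92), Calr (0.85), Manf (0.85), Pdia3 (0.85) and Hsp90b1 (0.84). For Hsph1 they were Homer1 and Hspa8 (0.78 each), Hspa4 and Hnrnpc (0.76 each) and Hyou1 (0.75). For Cct5 they were Ywhab (0.63), Gria1 and Ptpra (0.62 each), and Fam174b and Lgi1 (0.60 each), with no other CCT subunit among the 5. These libraries share library numbers and differ in depth, which such values include.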

How the data were processed

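Hippocampal polyA RNA was sequenced, 1 library per mouse, after Qiagen RNeasy extraction and Illumina preparation, per the labels' protocols. The authors deposited expected counts per gene, which per the submitters' processing notes come from RSEM with build GRCm38; the aligner, the annotation and all versions were not given in the sources used here. Every deposited count was whole, so none was rounded. Symbols came from GENCODE vM21 (40254 of 41128 Ensembl IDs found), and 7 features without an Ensembl ID were left out.

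Genes that passed edgeR's expression filter (16575, 16374 and 15852 in 2[4]6, 6[4]10 and 2.6[8]10, and 16627 over all 192 libraries) were fitted with edgeR 4.0.16's quasi-likelihood test in R 4.3.3, with TMM scaling and group and sex as terms. Each regimen had its own fit of 64 libraries, and the pooled genotype, age and sex comparisons used all 192. P-values were Benjamini-Hochberg adjusted over all genes tested and called under 0.05. The SE is the log2 change over the square root of F, and log2 CPM used a prior count of 2.

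Named were 12 main chaperones, the called genes of each comparison with up to 5 raised and 5 lowered of smallest adjusted p, genes called one way in at least 4 of 6 genotype comparisons, and up to 3 genes of each list. Of the genes this rule names, 1 is not reported here. The lists were heat shock factors with Hsbp1, co-chaperones, chaperonin partners, ER genes, mitochondrial genes, temperature and handling genes, and markers of 10 cell types or regions. The genes described and these lists were chosen with earlier results of these data known. Alternatives were DESeq2 1.42.0 and its size factors, no count filter, a replicate block, leaving out replicates or libraries, and a library-number block in limma 3.58.1. Scripts were tested on simulated data.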

Additional observations from a re-analysis of the deposited data

Results flagged for a closer look

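In a group of 8 mice, the highest or lowest mouse stood apart from the next by more than 0.526 of the group's range in 57 of 408 pairs of gene and group, looked at in 17 chaperone genes, and this concerned 26 mice. For independent, normally distributed values chance gives about 1 in 20. These genes vary together and mice share library numbers, so that share is not a strict background, and no share over all genes was computed. All values below are CPM, and a mouse is the highest of its group unless called the lowest. In the untreated WT group of 2.6[8]10, male 4 stood apart in 7 genes, with Dnaja4 at 88.1, Dnajb1 at 72.1, Hsp90ab1 at 2004.6, Hspa1a at 44.1, Hspa1b at 50.6, Hspb1 at 7.91 and Hsph1 at 345. Female 1 of the untreated WT group of 6[4]10 stood apart in 7 genes, with Dnajb1 at 58.6, Hspa1a at 35.6, Hspa1b at 49.8, Hspa5 at 384, Hspa8 at 2165.8, Hspb1 at 10.9 and Hsph1 at 383.5. In the HTT-634.486 WT group of 2.6[8]10, male 4 stood apart in 4 genes, with Dnajb1 at 76.9, Hspa1a at 69.4, Hspa1b at 71.1 and Hspb1 at 9.36. Male 4 of the NTC WT group of 2.6[8]10 stood apart in 3 genes, with Hsp90aa1 at 1305, Hspd1 at 174.4 and Hsph1 at 370.0. In the NTC WT group of 2[4]6, female 3 stood apart in 3 genes, with Dnajb1 at 49.4, Hspa8 at 2104 and Hspe1 at 75.9. Male 4 of the HTT-10150 WT group of 2.6[8]10 stood apart in 3 genes, with Dnajb1 at 67.0, Hspa1a at 48.4 and Hspb1 at 10.04. In the NTC zQ175 group of 6[4]10, male 3 stood apart in 3 genes, with Hspa1b at 28.2, Hspa5 at 329 and Hspb1 at 8.46. Female 1 of the NTC WT group of 6[4]10 stood apart in 3 genes, with Hspa5 at 319.7, Hspb1 at 8.06 and Hsph1 at 365. In the untreated zQ175 group of 2[4]6, male 2 stood apart in 3 genes, with Hspa13 at 60.9, Hspa1b as the lowest at 11.2 and Hspd1 at 188.

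The other mice stood apart in 1 or 2 genes each. For Cct3 the value was 122 in female 1 of the HTT-10150 WT group of 2.6[8]10. For Dnajb1 the value was 57.8 in female 1 of the HTT-10150 WT group of 6[4]10. Dnajc18 was at 89.04 in female 3 of the untreated zQ175 group of 2[4]6 (lowest), 89.8 in male 3 of the HTT-10150 WT group of 6[4]10 (lowest) and 78.6 in male 2 of the untreated zQ175 group of 6[4]10 (lowest). Hsp90aa1 was at 949 in male 1 of the HTT-634.486 WT group of 2.6[8]10 (lowest), 1016 in male 2 of the HTT-10150 zQ175 group of 2[4]6 (lowest), 1502 in female 3 of the HTT-634.486 WT group of 6[4]10 and 1440.1 in male 2 of the HTT-10150 zQ175 group of 6[4]10. For Hsp90ab1 the value was 1908 in male 1 of the untreated WT group of 2[4]6. For Hsp90b1 the value was 438 in female 1 of the HTT-10150 WT group of 2.6[8]10. For Hspa13 the value was 38.3 in male 3 of the HTT-634.486 zQ175 group of 2[4]6 (lowest). For Hspa1a the value was 27.5 in female 4 of the untreated zQ175 group of 2.6[8]10. Hspa1b was at 9.11 in male 2 of the HTT-10150 zQ175 group of 6[4]10 (lowest) and 33.1 in male 3 of the untreated zQ175 group of 6[4]10. For Hspa5 the value was 341 in female 1 of the HTT-10150 WT group of 6[4]10. For Hspa8 the value was 1893 in female 4 of the HTT-10150 zQ175 group of 2[4]6. For Hspb1 the value was 6.08 in female 4 of the untreated WT group of 2[4]6. Hspe1 was at 52.3 in male 4 of the HTT-10150 zQ175 group of 2[4]6 (lowest), 74.2 in female 3 of the HTT-10150 zQ175 group of 6[4]10 and 76.4 in male 2 of the untreated zQ175 group of 6[4]10. The cause of these single values was not tested.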

How the results depend on the processing

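The pooled genotype counts (26 chaperone genes called) stayed within 1.5 times under every alternative run. Counts of small size moved. For untreated mice at 2[4]6, 1 gene was called without the count filter and 4 by DESeq2, against 2. DESeq2 called 2 genes for NTC against untreated zQ175 mice at 2[4]6, against 0. HTT-10150 against NTC in WT mice of 2.6[8]10 gave 2 with DESeq2 size factors, 2 with DESeq2 and 3 with a library-number block, against 1. Without the library with striatal markers, NTC against untreated WT mice of 2.6[8]10 gave 2, against 1, and HTT-634.486 in zQ175 mice gave 4, against 2.

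Without each replicate number in turn, the genotype counts in untreated mice were 0 to 1, 4 to 7 and 4 to 14 in 2[4]6, 6[4]10 and 2.6[8]10 (2, 8 and 12 with all mice), and with NTC 1 to 3, 7 to 11 and 2 to 11 (4, 14 and 8). NTC against untreated gave 0 to 2 in zQ175 mice of 2[4]6 and 0 to 2 in WT mice of 2.6[8]10. HTT-10150 gave 0 to 7 in zQ175 mice of 2[4]6, 0 to 1 in zQ175 and 0 to 4 in WT mice of 2.6[8]10, HTT-634.486 gave 0 to 1 at 6[4]10 and 1 to 4 at 2.6[8]10 in zQ175 and 0 to 1 in WT mice of 2.6[8]10, and sex gave 5 to 11. These refits have 6 of 8 mice a group.

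Of 95 calls of a gene in a comparison, 0 reversed. All 95 were kept with DESeq2 size factors and with DESeq2, 82 without the filter and 92 without the 3 libraries in doubt. With the library-number block 92 were kept, without a replicate number 58 to 67, and under every alternative 32. The library-number block used 1 correlation for all genes: 0.051, 0.103 and 0.134 in 2[4]6, 6[4]10 and 2.6[8]10, and 0.094 over all libraries. Several chaperones had far higher intraclass correlations, such as Hspa8 with 0.79 at 2.6[8]10. For such genes that block corrects little for shared numbers, so a call kept under it says little. With the replicate block all 85 calls fitted were kept, and it gave 3, 11 and 13 genes in untreated and 5, 16 and 10 in NTC mice by genotype, and 27 pooled. Deviations of same-numbered mice correlated at a mean of 0.026, 0.05 and 0.063, with lowest values of -0.68, -0.54 and -0.46. These means include pairs of mice of different genotype, which never share a library number. Within a genotype and sex, mice with the same replicate number often did share one, as all WT males of 2[4]6 did. The means therefore cannot decide whether replicate numbers pair mice within a genotype.

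Correlations were less stable at 2[4]6, at 0.15 for Hsph1 and Dnajb1, 0.17 for Cct2 and Cct5, -0.08 for Hspd1 and Hspe1 and -0.18 for Hspa1b and Fos, the last 2 reversed. Hspd1 and Hspe1 gave 0.32 at 2.6[8]10 and 0.41 over library numbers, and Hspb1 and Cldn5 gave -0.14 at 6[4]10 and -0.11 over numbers. The cause of these changes was not tested. The lowest depth, 8.44 M counts, limits genes of few counts such as Hspa12b and Hspb1.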
